A study of Homo sapiens with 4 samples.

Results

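The genes described are 30 genes of DNA replication and S phase other than the MCM, CDC45 and GINS genes of the replicative helicase, in single U-2 OS cells left untreated or exposed to ionizing radiation (IR). They were chosen by symbol, are all among the 36601 genes listed in each of the 4 matrices, and were ordered by step: nucleotide supply, polymerases, clamp with loader and lagging strand, licensing and fork control, chromatin and histone supply, and repair at the fork. U-2 OS is a widely used osteosarcoma cell line in which p53 is intact. Each of 2 experiments gave 1 library of untreated cells (UT) and 1 library of cells given 4 Gy (IR), sorted singly into wells and sequenced by SORT-seq, which tags the 3′ end of polyadenylated RNA with a unique molecular identifier (UMI). The labels name 48 h after IR in the series design and 24 h in the treatment protocol, and the study's methods give 48 h. All libraries are of this 1 line, and the labels do not say whether its PCNA gene carries the fluorescent tag that other lines of the study have. The libraries held 358 and 367 UT cells and 247 and 248 IR cells.

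To copy its genome a cell loads helicases at origins in G1 and fires them in S phase. Ribonucleotide reductase and thymidylate synthase supply deoxynucleotides, polymerase alpha with primase starts each strand, polymerases delta and epsilon extend it, and the ring-shaped clamp PCNA, opened and closed by the loader RFC, holds polymerases and other factors on the DNA. Behind the fork, chaperones deposit histones and maintenance factors copy DNA methylation. Transcripts of many of these genes rise at the G1/S boundary under E2F transcription factors, and p53 with its target p21 (CDKN1A) represses this programme after DNA damage.

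Total gene counts per library were 5736339 to 6810079, and the median per cell was 15662 and 17627 in UT against 20181 and 22035 in IR. Mitochondrial transcripts made up 4.02% to 4.11% of counts in UT and 2.26% to 2.43% in IR. The part of these differences in the results was not tested. The response to IR was visible in CDKN1A, at 337 and 284 CPM (counts scaled to a common library total) in UT and 942 and 888 in IR (log2 fold change 1.56, adjusted p = 0.0176). Mesenchymal markers VIM, COL1A1 and SPARC were abundant in every library, whereas COL1A2 stayed at or under 2.64 CPM and TWIST1 at or under 0.323. The epithelial marker EPCAM was at 13.6 to 17.2 CPM in every library. The other epithelial, blood and endothelial markers examined stayed at or under 4.11 CPM. Of the 376 well barcodes, 161 occurred in all 4 libraries, and cells with the same barcode in different libraries were about as alike as other pairs (median r = 0.513 and 0.512 between the UT libraries, across genes).

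Every one of the 30 genes was lower in IR than in UT in both experiments, against 36.3% of the 14647 genes tested. The scaling used TMM factors, which set the typical gene to no change, and experiments 1 and 2 are given in that order. The median log2 fold change of the 30 genes was -0.68 (-0.59 in experiment 1 and -0.74 in experiment 2), where the median of all genes tested was -0.00. Both IR libraries lay below both UT libraries for 28 of the 30, against 24.2% of all genes, and PCNA and UHRF1 were the 2 that overlapped. With 2 libraries a group and no term for the experiment, 2 of the 30 passed edgeR's quasi-likelihood test as lower (ATAD2 and WDR76), none as higher, against 0.847% of all genes called lower and 1.63% called higher. At an unadjusted p under 0.05, 25 were lower, against 8.25% of all genes. With the experiment number as a block, which pairs the libraries and leaves 1 residual degree of freedom, 28 of 30 fell, against 12.9% of all genes. The 2 that did not pass there were CDCA7 (adjusted p = 0.187) and CHAF1B (adjusted p = 0.25).

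**Figure D1:**
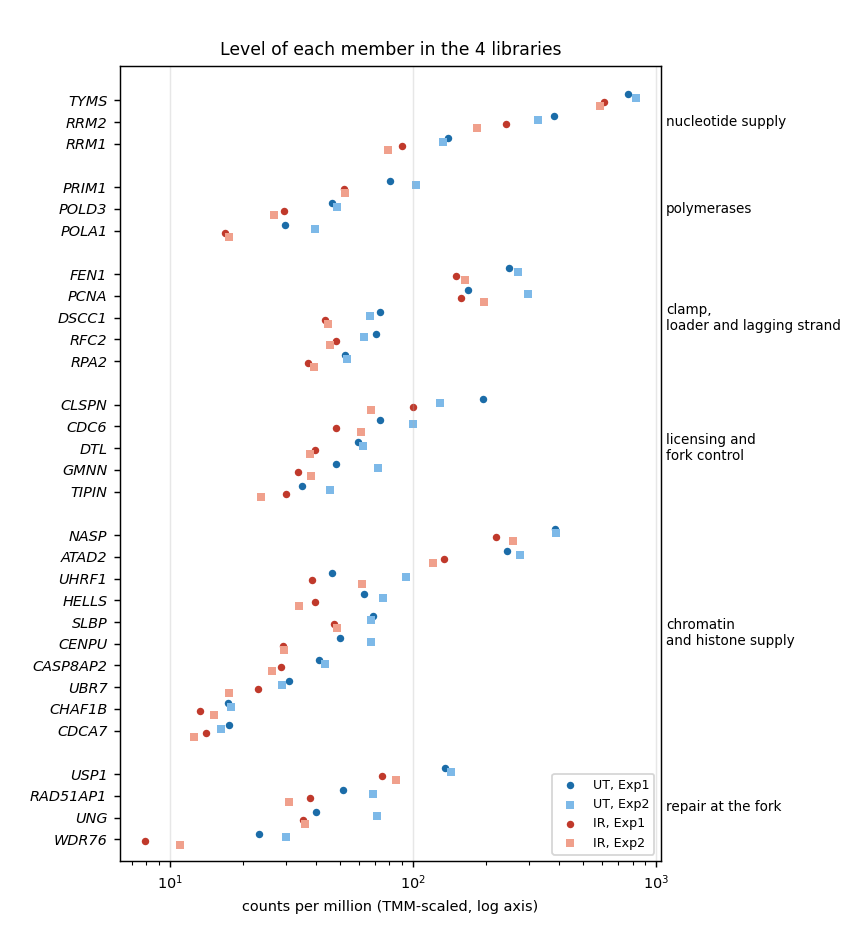
CPM of each of the 30 genes (log axis) in the UT (blue) and IR (red) libraries of Exp1 (circles) and Exp2 (squares), grouped by step. Both red points lie left of both blue points for 28 genes, and the exceptions are PCNA and UHRF1.

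By step, the median log2 fold change ran from -0.51 for the clamp, loader and lagging strand genes to -0.82 for the polymerase genes. Between these lay chromatin and histone supply at -0.60, licensing and fork control at -0.67, nucleotide supply at -0.69 and repair at the fork at -0.81. Each step holds 3 to 10 genes, and within most steps the genes differed more than the step medians did. The steps were not compared by a test. The estimates ranged from -1.49 (WDR76) to -0.30 (CHAF1B).

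**Figure D2:**
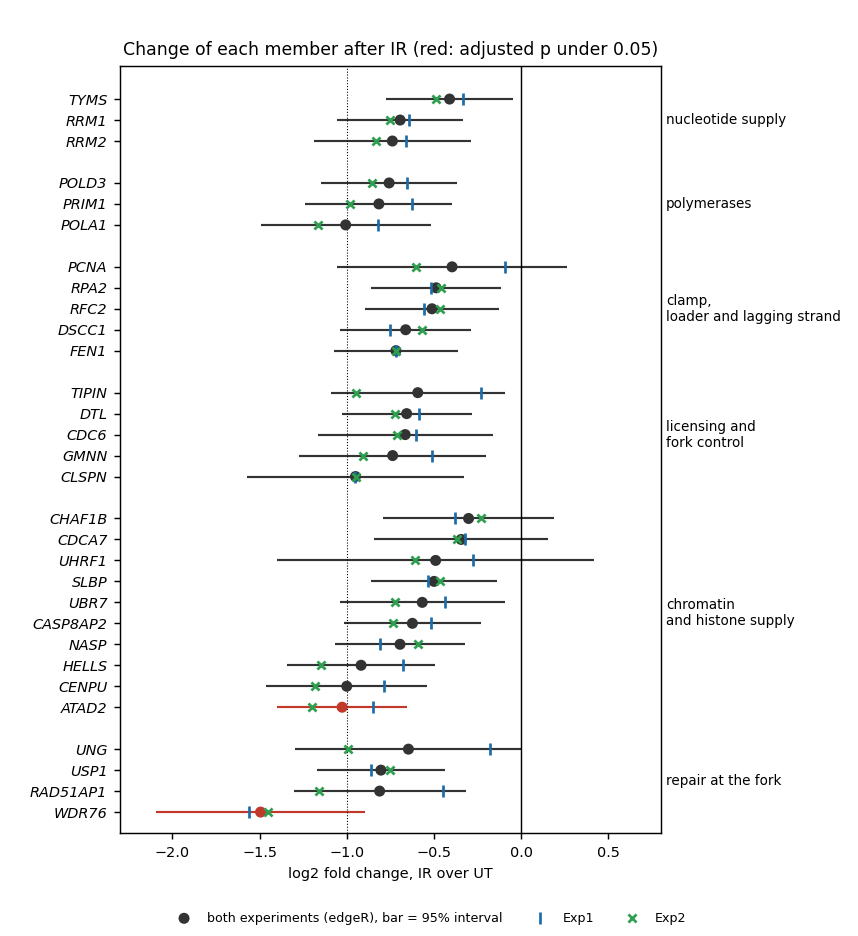
log2 fold change of IR over UT for each of the 30 genes by step, with its 95% interval from edgeR and the value of each experiment (blue bar, Exp1; green cross, Exp2). All 30 estimates lie left of 0, 2 are red (adjusted p under 0.05), and the interval reaches past 0 for 5.

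Among the genes of nucleotide supply, RRM2 and RRM1, the small and large subunits of ribonucleotide reductase, were lower by about the same amount. RRM2 stood at 381 and 326 CPM in UT and at 241 and 183 in IR (log2 fold change -0.74, 95% interval -1.19 to -0.29, adjusted p = 0.0968). RRM1 stood at 140.0 and 133 CPM in UT and at 89.8 and 78.7 in IR (-0.69, adjusted p = 0.0687). In both genes the groups were apart in each experiment, and both fell under the block. TYMS, thymidylate synthase and the most abundant of the 30, held best within the step, at 766 and 827 CPM in UT against 609 and 590.3 in IR. Its log2 fold change was -0.41, with a 95% interval of -0.77 to -0.05 that excludes a drop of 1 on the log2 scale but not a smaller one. Per cell, the mean deposited count of TYMS was 12.1 and 15.01 in UT against 14.4 and 15.2 in IR, so the lower share of the library went with no lower count per cell.

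All 3 polymerase genes lay low in both IR libraries. POLA1, the catalytic subunit of polymerase alpha, went from 29.6 and 39.4 CPM in UT to 16.8 and 17.6 in IR (log2 fold change -1.01, adjusted p = 0.0568). PRIM1, the small primase subunit that makes the RNA primer, stood at 80.7 and 103 CPM in UT against 52.2 and 52.3 in IR (-0.82, adjusted p = 0.0664). For POLD3, an accessory subunit of polymerase delta, the values were 46.5 and 48.7 CPM in UT and 29.5 and 26.8 in IR (-0.76, adjusted p = 0.0653). No library of one group entered the range of the other in these genes, and all 3 fell under the block. PRIM1 shares its last kilobase with NACA on the same strand, and FEN1 and UNG also overlap a gene of their own strand there. Reads assigned to more than 1 gene were not counted by the authors, so levels of these 3 are less certain. RRM1, TYMS, DSCC1 and CENPU overlap a gene of the opposite strand, where the effect depends on how strand was treated. The partners of RRM1 and DSCC1 stayed at or under 0.343 CPM in every library. Others reached higher levels: up to 683 CPM for NACA, 319 for FADS2 beside FEN1 and 2.10 for ACACB beside UNG. On the opposite strand, ENOSF1 beside TYMS reached 32.1 CPM and PRIMPOL beside CENPU 13.4.

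PCNA differed from its neighbours at the fork by its spread. It stood at 168 and 296 CPM in UT and at 157 and 195 in IR, so that the IR library of experiment 2 lay above the UT library of experiment 1. The log2 change was -0.09 in experiment 1 and -0.60 in experiment 2, the fitted value was -0.40 with a 95% interval of -1.06 to 0.26 (adjusted p = 0.515), and without the UT library of experiment 2 it was 0.07. Under the block, which removes the difference between experiments, PCNA passed the test (adjusted p = 0.0056). The gene lies on chromosome 20 at 5114953 to 5126626 on the minus strand (GRCh38).

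The other genes of this step were tighter between experiments. FEN1, the flap endonuclease that trims Okazaki fragments, stood at 248 and 270.4 CPM in UT and at 150.5 and 164 in IR, with -0.72 in each experiment (adjusted p = 0.0604). DSCC1, part of the alternative clamp loader, was at 73.1 and 66.4 CPM in UT and 43.3 and 44.7 in IR (log2 fold change -0.66, adjusted p = 0.0828). UT and IR values were well apart in both genes. RFC2, a subunit of the RFC loader, was at 70.8 and 62.8 CPM in UT and 48.1 and 45.5 in IR (-0.51, adjusted p = 0.155). RPA2, a subunit of the protein that coats single-stranded DNA, was at 52.7 and 53.8 CPM in UT and 36.8 and 39.1 in IR (-0.49, adjusted p = 0.162). For RFC2 and RPA2 the 95% interval excluded -1, as it did for 6 of the 30 genes in all, the others being TYMS, CDCA7, CHAF1B and SLBP.

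Genes of licensing and fork control were lower by similar amounts, with unequal agreement between experiments. CLSPN encodes claspin, which carries the checkpoint signal from ATR to CHK1, and stood at 193 and 129.7 CPM in UT and 99.7 and 67.4 in IR (log2 fold change -0.95, adjusted p = 0.115). The change was -0.95 and -0.94 in the 2 experiments, while the level itself differed between them in both groups. CDC6, which loads the helicase at origins, was at 73.3 and 99.9 CPM in UT and 48.3 and 60.9 in IR (-0.67, adjusted p = 0.156). GMNN encodes geminin, the inhibitor of the licensing factor CDT1, and was at 48.1 and 71.7 CPM in UT and 33.7 and 38.1 in IR (-0.74, adjusted p = 0.144).

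DTL and TIPIN complete this step. DTL, the substrate receptor that marks CDT1 and p21 for destruction on loaded PCNA, was at 59.4 and 62.3 CPM in UT and 39.6 and 37.7 in IR (log2 fold change -0.66, adjusted p = 0.0828). TIPIN, a partner of TIMELESS in the fork protection complex, changed by -0.23 in experiment 1 and -0.95 in experiment 2, from 35.1 and 45.7 CPM to 29.97 and 23.7. All 5 genes of the step had IR values below every UT value and fell under the block.

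Chromatin and histone supply holds the gene with the clearest change by the unpaired test and also 3 of the 5 genes whose interval includes 0. ATAD2, a bromodomain ATPase on newly replicated chromatin, encoded on chromosome 8 at 123319850 to 123416350 on the minus strand, stood at 243 and 277 CPM in UT and 134 and 121 in IR. Its IR level was 0.491 times the UT level (log2 fold change -1.03, SE 0.16, adjusted p = 0.0323). The call was lost without the IR library of either experiment or without the UT library of experiment 2, with an adjusted p of up to 0.103 and values of -1.12 to -0.93.

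CENPU, a centromere protein, was at 50.2 and 67.0 CPM in UT and 29.1 and 29.5 in IR (0.4999 times the UT level, adjusted p = 0.0514). HELLS, a chromatin remodeller needed for DNA methylation, was at 63.1 and 75.3 CPM in UT and 39.4 and 33.9 in IR (log2 fold change -0.92, adjusted p = 0.0520). Both lay close to the threshold of 0.05. NASP, a chaperone that keeps a reserve of histones H3 and H4, was at 384 and 387 CPM in UT and 219 and 257 in IR (-0.69, adjusted p = 0.0728). CASP8AP2, which is needed for histone gene transcription, was at 41.1 and 43.6 CPM in UT and 28.8 and 26.2 in IR (-0.62, adjusted p = 0.105). SLBP, which binds the stem-loop of histone mRNAs, was at 68.6 and 67.3 CPM in UT and 47.4 and 48.7 in IR (-0.50, adjusted p = 0.144). In all of these the groups were apart.

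Of the other 4 chromatin genes, UBR7, an E3 ubiquitin ligase for histone H2B, was at 31.04 and 29.0 CPM in UT and 23.0 and 17.6 in IR (log2 fold change -0.57, adjusted p = 0.194), with groups that did not overlap. UHRF1, which brings the DNA methyltransferase to hemimethylated DNA, varied like PCNA, with 46.5 and 93.7 CPM in UT and 38.4 and 61.5 in IR. Its fitted value of -0.49 had a 95% interval of -1.40 to 0.42 and became 0.11 without the UT library of experiment 2. The change was -0.28 in experiment 1 and -0.61 in experiment 2. Under the block UHRF1 passed the test (-0.46, interval -0.71 to -0.22, adjusted p = 0.0022). CDCA7, the partner that activates HELLS, was at 17.6 and 16.2 CPM in UT and 14.04 and 12.6 in IR (-0.34, interval -0.84 to 0.15). CHAF1B, a subunit of the chromatin assembly factor CAF-1, was at 17.4 and 17.9 CPM in UT and 13.4 and 15.2 in IR (-0.30, interval -0.79 to 0.19). These 2 genes are among the least abundant of the 30, did not pass the test with or without the block, and had intervals that exclude -1.

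Among the genes of repair at the fork, WDR76 had the lowest ratio of all 30. It encodes a WD40 protein found at DNA damage and lies on chromosome 15 at 43826980 to 43868412. WDR76 stood at 23.2 and 30.04 CPM in UT and 7.88 and 10.99 in IR, 0.355 times the UT level (log2 fold change -1.49, SE 0.25, adjusted p = 0.0389). The call was lost without the IR library of experiment 1 or the UT library of experiment 2, with an adjusted p of up to 0.114 and values of -1.76 to -1.28. USP1, the deubiquitinase that acts on PCNA and FANCD2, was at 135 and 144 CPM in UT and 74.3 and 85.3 in IR (-0.80, adjusted p = 0.0504). RAD51AP1, which acts in homologous recombination, was at 51.6 and 68.7 CPM in UT and 37.9 and 30.8 in IR (-0.81, adjusted p = 0.0968). UNG, the uracil glycosylase that clears uracil from new DNA, was at 40.1 and 71.2 CPM in UT and 35.5 and 35.8 in IR. Its change was -0.18 in experiment 1 and -0.99 in experiment 2 (fitted value -0.65, interval -1.30 to 0.00).

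The scale mattered for these values, because IR cells held more counts each. With the number of cells in place of the library total, the median of all genes shifted to 0.54 and that of the 30 genes to -0.14, and 22 of the 30 stayed negative. None passed without the block, and 7 did with it (POLA1, CLSPN, HELLS, ATAD2, CENPU, USP1 and WDR76), against 1.89% of all genes. On the scale of the spike-in RNA the 30 genes had a median of 0.11 against 0.74 for all genes, but single values could not be resolved. Spike-ins made up 0.318% and 1.21% of counts in UT and 0.191% and 0.952% in IR, so they differed more between experiments than between groups, and the 95% intervals of the 30 genes all began at or below -3.25 and ended at or above 2.86. On both scales each of the 30 lay below the median of all genes. A change of scale shifts all genes by about the same amount, so this repeats the CPM result and adds no support. The lower CPM are lower relative to other transcripts. Fewer cells with the transcript and less transcript per cell cannot be told apart from library sums alone.

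Other genes of the same steps gave the surroundings of the 30. Of 67 listed, 66 could be tested (CHTF8 was too low). Their log2 fold changes had a median of -0.57, and 62 were negative. Called lower were CDC7, the kinase that fires origins (-1.34, adjusted p = 0.0276), BLM, a helicase of recombination (-1.02, adjusted p = 0.0389), RFC4 (-0.98, adjusted p = 0.0412) and RFC5 (-0.96, adjusted p = 0.0443), subunits of the clamp loader beside RFC2, DNAJC9, a histone chaperone (-0.84, adjusted p = 0.0437), and MSH6 of mismatch repair (-0.96, adjusted p = 0.0454). All 6 lost significance without either IR library or without the UT library of experiment 2, with an adjusted p of up to 0.0856 for CDC7 and up to 0.177 for MSH6. POLE, the leading-strand polymerase, had the smallest p of the polymerase genes (-0.82, adjusted p = 0.0552). The 6 called lower of 66 are read against 0.847% of all genes. With the block 55 were lower and 2 higher, against 12.9% and 14.3% of all genes.

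RRM2B moved the other way. It encodes the small subunit of ribonucleotide reductase that p53 induces, and stood at 73.6 and 95.1 CPM in UT and 227 and 233 in IR (log2 fold change 1.45, adjusted p = 0.0200). The call held without any 1 library (adjusted p of up to 0.032). Both IR libraries lay above both UT libraries, the opposite of RRM2 in the same cells. CTPS1, a CTP synthase, was the other gene higher under the block (0.46, adjusted p = 0.196 without it).

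The upstream sequence of the genes was searched for letters of the E2F site. Of the 30 genes, 25 have an entry in the promoter table from RefSeq (GRCh38.p14), and the 250 bases before the start were read on both strands for TTTCCCGC, TTTCGCGC, TTTGCCGC or TTTGGCGC. At least 1 of these stood in 13 of the 25 (52%), against 3.40% of the 27305 genes in the table and 11 of 57 (19.3%) of the other replication genes. CCAAT, the box bound by NF-Y, stood in 19 of 25 (76%) against 37.0% of all genes and 30 of 57 (52.6%) of the other replication genes. Genes with the E2F letters had no larger change: the median log2 fold change was -0.62 for these 13 and -0.71 for the 12 without. For CCAAT the medians were -0.69 for the 19 genes with it and -0.46 for the 6 without. The values overlapped there, at -1.01 to -0.40 with CCAAT and -0.72 to -0.30 without. Neither difference was tested. A match is a description of the sequence and not a measured site. Shown are stretches of 100 bases from POLA1 and CENPU, the 2 genes with these letters that had the lowest fold changes, and from TYMS and PCNA, 2 of the least changed, each 5′ to 3′ on the strand of the gene with the E2F letters in capitals. They lie at chrX:24693735-24693834 (plus strand), chr4:184734247-184734346 (minus strand), chr18:657553-657652 (plus strand) and chr20:5126628-5126727 (minus strand).
POLA1: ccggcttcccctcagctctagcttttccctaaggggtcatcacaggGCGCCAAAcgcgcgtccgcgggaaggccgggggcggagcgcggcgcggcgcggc
CENPU: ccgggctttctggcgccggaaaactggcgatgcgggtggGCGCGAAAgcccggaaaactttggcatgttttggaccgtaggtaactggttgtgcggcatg
TYMS: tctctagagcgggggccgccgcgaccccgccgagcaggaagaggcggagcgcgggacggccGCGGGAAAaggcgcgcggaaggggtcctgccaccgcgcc
PCNA: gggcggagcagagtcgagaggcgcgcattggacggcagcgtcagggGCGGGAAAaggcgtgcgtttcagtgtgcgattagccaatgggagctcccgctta

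How the transcripts were spread over single cells was examined after each cell was thinned to 8000 UMIs, which left out 11 to 25 shallower cells per library. The median UT cell had a UMI of 13 and 14 of the 30 genes, and the median IR cell of 7 and 8.5. Cells with fewer than 5 of the genes made up 7.21% and 3.93% of UT cells but 29.4% and 22.8% of IR cells. Cells with 15 or more made up 40.8% and 48.9% of UT cells and still 17.7% and 21.98% of IR cells. The exact binomial 95% intervals of the groups did not overlap for either share, for example 13.05% to 23.3% in the IR library of experiment 1 and 35.5% to 46.3% in its UT library. Intervals of shares cover counting error only.

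**Figure D3:**
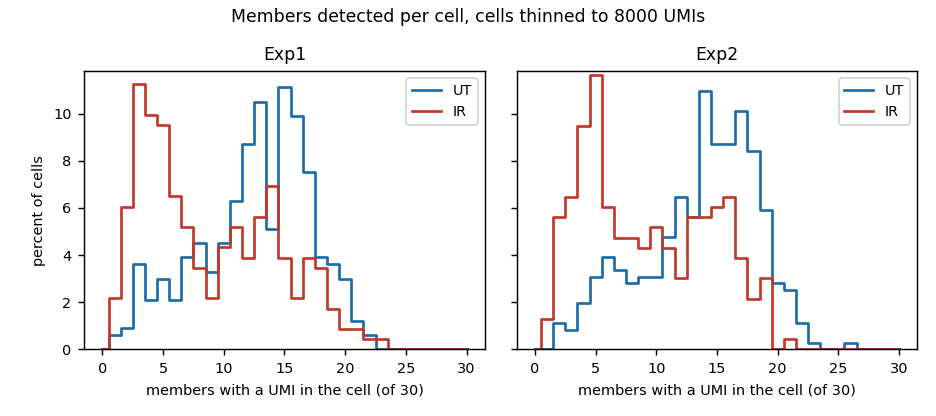
Percent of cells (y axis) by the number of the 30 genes with a UMI (x axis) in UT (blue) and IR (red), Exp1 left and Exp2 right, each cell thinned to 8000 UMIs. IR cells pile up at few genes, yet part of the IR population stays within the range of most UT cells.

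For each of the 30 genes the share of cells with a UMI was lower in IR in both experiments. The median change was -12.3 percentage points on thinned counts (range -27.4 to -0.967) and -11.3 without thinning. Such shares were not computed over all genes, so how far this is particular to the 30 is not known. ATAD2 transcripts were found in 68.5% and 73.6% of UT cells and in 42.9% and 44.4% of IR cells. USP1 transcripts were found in 56.5% and 64.6% of UT cells and in 36.4% and 38.8% of IR cells. TYMS was found in nearly every cell of every library (96.7% and 98.03% in UT, 95.2% and 93.1% in IR).

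In cells that had a UMI of the gene, the mean number of UMIs was lower in IR for 24 of the 30 genes. Its median log2 change was -0.10, beside -0.62 for the share of cells itself. At low counts the mean in positive cells is held near 1 by construction. For abundant genes it can move. For TYMS it lay at 5.93 and 6.40 UMIs in UT against 4.96 and 5.05 in IR, a log2 change of -0.30. For other abundant genes the change was -0.31 (NASP), -0.23 (RRM2), -0.26 (ATAD2), -0.20 (FEN1) and -0.13 (PCNA). All cells were of 1 line, so no cell type that lacks these genes gave a background for the shares.

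Cells were then divided by the helicase score, the summed thinned UMIs of the 12 MCM, CDC45 and GINS genes, none of which is among the 30. Helicase-high cells had at least the UT median of 11 UMIs, and made up 53.8% and 55.1% of UT cells and 24.2% and 25.4% of IR cells. This score is a range and not a cell type, and 24 to 64 cells per library lay within 1 UMI of the limit. A second score over mitotic (G2M) genes divided each range again. Cells low for both scores made up 23.1% and 24.2% of UT cells and 60.2% and 58.6% of IR cells, and the other 3 ranges all held smaller shares of the IR cells than of the UT cells, with overlapping intervals for helicase-low, G2M-high cells.

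**Figure D4:**
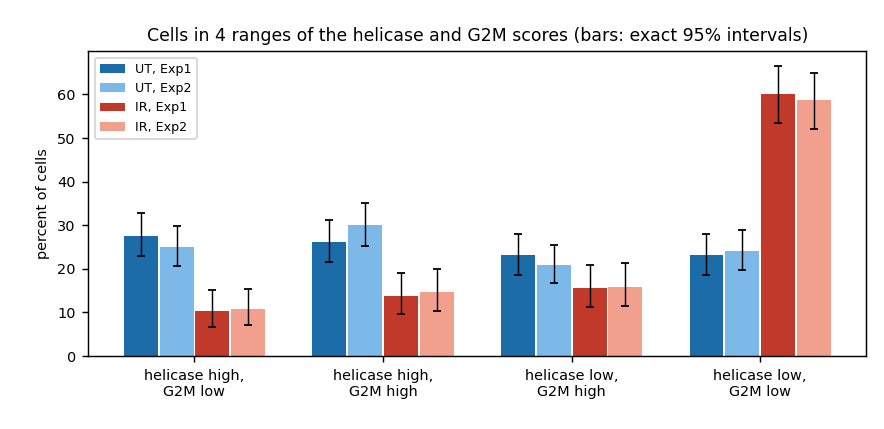
Percent of cells in 4 ranges of the helicase and G2M scores in each library, with exact binomial 95% intervals. The range low for both scores holds 60.2% and 58.6% of the cells in the IR libraries and 23.1% and 24.2% in UT.

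In UT cells, transcripts of all 30 genes were more frequent in helicase-high cells than in cells low for both scores, in both libraries. The geometric mean of the 2 ratios ran from 1.19 for CASP8AP2 to 7.39 for RAD51AP1, with a median of 2.72. The ratios of RAD51AP1 rest on 5 and 9 UMIs in the cells low for both scores. Such ratios were not computed over all genes, so how far they are particular to the 30 is not known. NASP and UNG, at 1.74 and 1.78, also had low ratios, and ATAD2, at 5.02, a high one.

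Within helicase-high cells the difference between IR and UT was small. None of the 30 genes passed edgeR's test in either direction (0.29% of all genes were lower and 0.829% higher), DESeq2 called none, and 3 were lower at an unadjusted p under 0.05, where 4.81% of all genes were. The median log2 fold change was -0.19, and for 26 of the 30 the 95% interval excluded -1. WDR76 (-0.73, interval -1.27 to -0.20), CASP8AP2 (-0.54, interval -1.01 to -0.08) and ATAD2 (-0.46, interval -0.85 to -0.07) were these 3, which do not stand as calls. With CLSPN they were the 4 genes that fell there under the block, against 5.32% of all genes. At the other end, CHAF1B was at 0.35 (interval -0.20 to 0.90). These values do not show equality: 27 of the 30 intervals include 0, and they include drops as well.

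Within helicase-low cells all 30 genes were lower in IR, with a median log2 fold change of -0.66, against -0.0019 for all genes tested. USP1 passed the test (-0.94, adjusted p = 0.0471, against 0.718% of all genes called lower and 0.999% called higher), and 20 of the 30 passed with the block (10.1% of all genes). The call of USP1 was lost without either IR library, with an adjusted p of up to 0.151.

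The difference between the 2 ranges was tested as an interaction over 8 sums, with the library as a block. It was positive for 28 of the 30 genes, that is, the IR effect was more negative in helicase-low cells. The median difference was 0.49 for the 30 genes and 0.0015 for all genes tested. As positive, 8 of the 30 passed the test, against 1.46% of all genes. These were RRM2 (0.59, adjusted p = 0.000216), USP1 (0.76, adjusted p = 0.00024), DTL (0.96, adjusted p = 0.00193), NASP (0.46, adjusted p = 0.00205), FEN1 (0.48, adjusted p = 0.00806), CLSPN (0.59, adjusted p = 0.0166), RRM1 (0.52, adjusted p = 0.0358) and HELLS (0.73, adjusted p = 0.0402). None passed as negative (0.155% of all genes). NASP and USP1 passed without any 1 library, while RRM1, RRM2, FEN1, CLSPN and HELLS lost the call without either library of experiment 1, and RRM1, DTL and HELLS without the UT library of experiment 2 (adjusted p of up to 0.665, for CLSPN). On thinned counts 3 of the 8 passed again (RRM2, FEN1 and USP1) and 5 did not.

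For USP1 the log2 fold change was -0.18 in helicase-high and -0.94 in helicase-low cells. For DTL the values were 0.12 and -0.83, and for RRM2 -0.13 and -0.75. The direction in helicase-high cells was not settled for either gene: DTL came to -0.16 there on thinned counts, and RRM2 ranged from -0.44 to 0.12 when 1 library was left out. Within the helicase-low range the IR cells were not matched to the UT cells: those low for both scores had a median helicase score of 2 UMIs in both IR libraries and of 4 and 5 in UT. In the helicase-low range 139 and 136 IR cells were G2M-low and 36 and 37 G2M-high. In UT these numbers were 77 and 86, and 77 and 74. The part of these differences in the result was not tested.

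**Figure D5:**
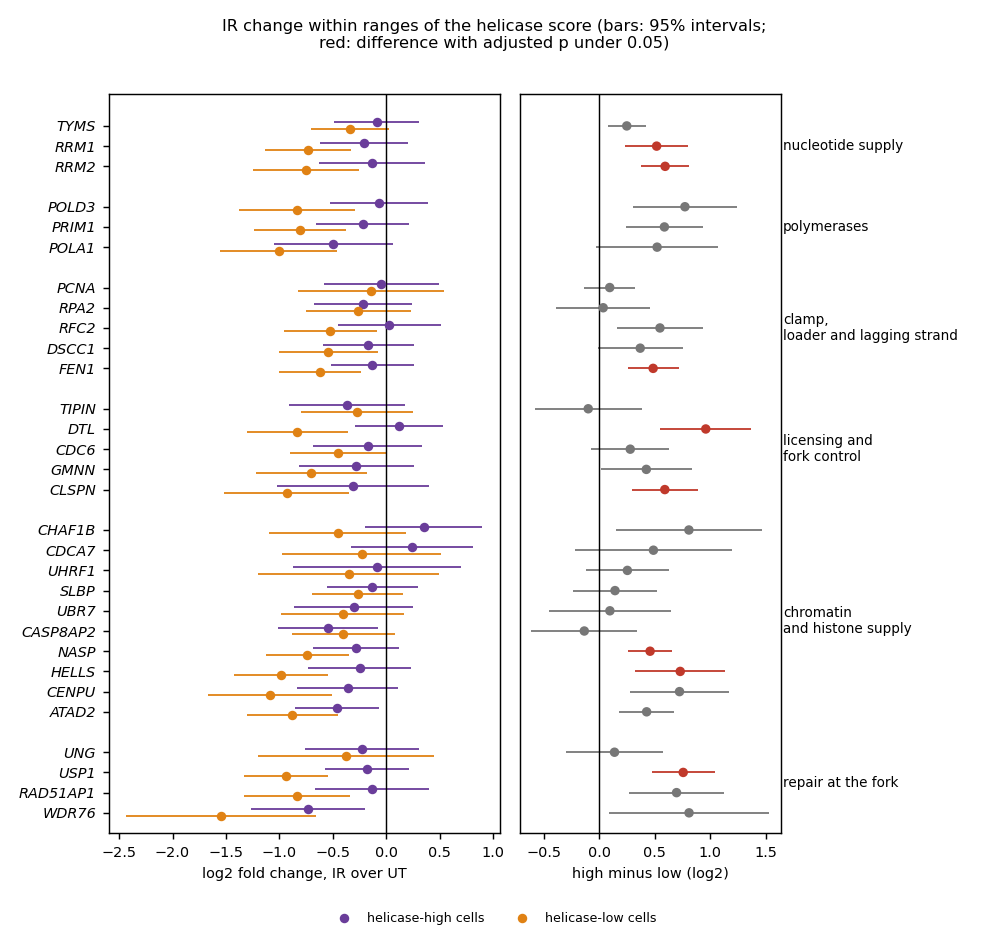
Left, log2 fold change of IR over UT with 95% intervals for the 30 genes in helicase-high (purple) and helicase-low (orange) cells. Right, the difference between these effects, positive for 28 of 30 and red for the 8 with an adjusted p under 0.05.

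Summed over the 30 genes, the log2 change in UMIs per cell ran from -0.27 to 0.13 in the 3 ranges with at least 1 high score, and was -0.34 and -0.54 where both scores were low. The -0.27 was that of helicase-high, G2M-high cells in experiment 2. Helicase-high, G2M-low cells held 33.7 and 34.1 of these UMIs in UT and 31.8 and 34.2 in IR. Helicase-high, G2M-high cells held 36.4 and 41.4 in UT and 35.7 and 34.4 in IR, and helicase-low, G2M-high cells held 26.4 and 27.5 in UT and 28.9 and 25.1 in IR. Cells low for both scores held 12.6 and 15.2 in UT against 9.96 and 10.5 in IR. Over all thinned cells the mean sum came to 27.8 and 30.4 in UT against 18.7 and 18.9 in IR.

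If cells of each range are given their UT level and the ranges are weighted as in the IR library, the median gene of the 30 comes to a log2 change of -0.49 in experiment 1 and -0.43 in experiment 2. The observed medians on the same thinned counts were -0.65 and -0.81. The log2 ratio of the observed to the weighted level had a median of -0.11 and -0.34. It was negative in both experiments for 20 genes and positive in both for 3. Cells of the same range were not matched between groups. Those low for both scores had a median helicase score of 2 in both IR libraries, against 4 and 5 in UT. A shift of cells and a change within a range cannot be told apart this way. This weighting is arithmetic, was chosen after the data had been seen and has no test.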

How the data were processed

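The authors aligned SORT-seq reads to GRCh38.p13 with STARsolo 2.7.10b, without intronic or multi-gene reads and without a UMI minimum per barcode; Seurat 5 is named for later steps. How strand was treated and which filter set the barcodes is not given in the sources used here. Values deposited are expected counts: at least 99.9% of values lie on the correction of UMI numbers for 4096 possible UMIs. The design had assumed plain counts, so deposited values of the 1220 cells were summed per library, rounded and tested by the robust quasi-likelihood F test of edgeR 4.0.16 (R 4.3.3) after filterByExpr and TMM scaling, with group as the only term and p-values adjusted by Benjamini-Hochberg over all genes tested (threshold 0.05). UMI numbers were recovered for thinning. The 92 spike-ins entered no library size.

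The libraries were grouped by their labels. The experiment number in the titles pairs them: deviations from the group means correlated at 0.635 over 14647 genes, and the coefficient of biological variation was 0.177 without and 0.0727 with the block. Both sets of samples are called independent in the study, and the p-values refer to the spread of these 4 libraries. An exact permutation of 2 against 2 libraries cannot pass 0.05, so shares of cells were not tested. No doublet caller was run on sorted wells; cells above 2 times the median count were left out in an alternative.

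The members and lists were chosen with earlier results of these data known. All 30 members are named, with other replication genes that passed the test or had the smallest p of their step. Other settings were DESeq2 1.42.0, no low-count filter, equal cells (240), thinned cells, UMI numbers, per-cell and spike-in scales, each library left out, and a higher limit of the score. Scripts were tested on simulated data. Positions are from GENCODE v44.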

Additional observations from a re-analysis of the deposited data

Results flagged for a closer look

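By the interaction test, the effect of IR differed between helicase-high and helicase-low cells for 8 of the 30 genes. Each had the more negative value in helicase-low cells, and 1.46% of all genes passed in that direction. The differences on the log2 scale, with edgeR's adjusted p, were 0.59 for RRM2 (0.000216), 0.76 for USP1 (0.00024), 0.96 for DTL (0.00193), 0.46 for NASP (0.00205), 0.48 for FEN1 (0.00806), 0.59 for CLSPN (0.0166), 0.52 for RRM1 (0.0358) and 0.73 for HELLS (0.0402). On cells thinned to the same depth 3 of the 8 passed again, RRM2, FEN1 and USP1, at 0.68, 0.77 and 1.03. The other 5 did not pass, at 1.04 for DTL (adjusted p = 0.159), 0.43 for NASP (0.152) and 0.57 for RRM1 (0.356). CLSPN was at 0.52 (0.420) and HELLS at 1.07 (0.0746). Helicase-low cells were not matched between groups: 139 and 136 IR cells were G2M-low and 36 and 37 G2M-high. In UT these numbers were 77 and 86, and 77 and 74. G2M-low cells held fewer UMIs of the 30 genes (12.6 and 15.2 in UT) than G2M-high cells (26.4 and 27.5). The part of this mismatch in the result was not tested.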

How the results depend on the processing

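All 30 genes kept a negative log2 fold change over all cells with DESeq2, without the low-count filter, with equal numbers of cells, with thinned cells, with UMI numbers, without cells of very high count and with the replicate block, while the number that passed ranged widely. Against 2 called lower (0.847% of all genes), there were 12 with DESeq2 (1.64%), 19 without the filter (2.24%) and 7 with equal numbers of cells (0.998%). Thinned cells gave 4 (0.458%, median log2 fold change -0.80, WDR76 not among them). There were 9 without cells of very high count (1.04%) and 28 with the replicate block (12.9%). On the per-cell scale 0 passed as lower (0.321%, median -0.14), and with the block 7 (1.89%, median -0.14). On the spike-in scale 0 passed (0.0%), with a median of 0.11. In helicase-high cells the block called 4 as lower (5.32%). In helicase-low cells, against 1, there were 3 with DESeq2, 14 without the filter, 20 with the block and 2 with the higher score limit (median -0.63), the median was -0.75 on thinned cells, and leaving out 1 library gave 0 to 10 with medians of -0.65 to -0.58. Against 8 interactions, 4 passed on thinned cells (3 of the 8, and CENPU) and 4 to 11 when 1 library was left out. The causes were not tested.

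Sign changes arose on the other scales. Per cell, the log2 fold change became 0.13 for TYMS, 0.12 for PCNA, 0.034 for RFC2, 0.054 for RPA2, 0.032 for UHRF1, 0.20 for CDCA7, 0.24 for CHAF1B and 0.043 for SLBP. With the block added these were 0.13, 0.19, 0.034, 0.055, 0.080, 0.20, 0.24 and 0.043. Per spike-in it became 0.088 for RRM1, 0.066 for RRM2, 0.38 for TYMS, 0.033 for PRIM1, 0.048 for POLD3, 0.49 for PCNA, 0.21 for RFC2, 0.024 for DSCC1, 0.23 for RPA2, 0.019 for FEN1, 0.098 for CDC6, 0.12 for GMNN, 0.13 for DTL, 0.37 for TIPIN, 0.33 for UHRF1, 0.42 for CDCA7, 0.39 for CHAF1B, 0.22 for SLBP, 0.19 for CASP8AP2, 0.27 for UBR7, 0.35 for UNG and 0.15 for RAD51AP1, with intervals for all 30 genes that begin at or below -3.25 and end at or above 2.86. With 1 library left out, PCNA ranged from -0.75 to 0.073 and UHRF1 from -0.91 to 0.11, both positive without UT replicate 2. In helicase-high cells DTL became -0.16 and CHAF1B -0.020 on thinned counts, CHAF1B was 0.20 in helicase-low cells with an interaction of -0.22, and with 1 library left out RRM2 ranged from -0.44 to 0.12 and CLSPN from -0.79 to 0.057. With 2 libraries a group, small changes cannot be resolved.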
